A study of Mus musculus with 12 samples.

Results

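The genes described here are the plasma membrane and lysosomal amino acid carriers of the solute carrier (SLC) families, measured in whole mouse colon. They were taken by gene symbol, as every named gene of the Slc1, Slc3, Slc7, Slc36, Slc38 and Slc43 families plus 7 genes of the Slc6 family and Slc16a10. The rule found 51 genes, each with 1 probe, among 19505 named genes and 22206 probes on the array. Among them Slc7a6os meets the symbol rule but is the neighbour of Slc7a6 on the opposite strand and is not a carrier.

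The colons came from healthy male mice 12 to 16 weeks old, and 4 genotypes were compared on Affymetrix arrays with 3 arrays each. The double knockout (DKO) lacked both Lao1 and Il4i1, the LAO1 knockout (LAO1 KO) lacked Lao1, the IL4i1 knockout (IL4i1 KO) lacked Il4i1, and the wild type carried both genes. All groups shared free access to food, the same housing and a 14-hour light cycle, and the labels name no treatment. The labels name neither the deleted exons nor the background strain, and the knockouts are described without a tissue-specific driver. The labels speak of 4 mice chosen at random per genotype and list 3 arrays, and they do not say whether an array held RNA of a single animal. The p-values therefore describe the spread among these arrays, some of which may be technical.

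Lao1 and Il4i1 encode secreted L-amino acid oxidases, which turn free amino acids into keto acids and release ammonia and hydrogen peroxide. IL4i1 prefers aromatic amino acids, which several of the carriers described here move across membranes. Amino acid carriers work by exchange, by cotransport with sodium or protons, or by facilitated diffusion. Several light chains of the Slc7 family reach the cell surface only when bound to a heavy chain of the Slc3 family, and starvation for amino acids raises transcription of many carriers through the factor ATF4. In the colon the carriers supply the epithelium from the blood side and recover amino acids that bacteria or dying cells leave in the lumen.

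The deposited values are log2 expression levels between 1.72 and 19.93, with array medians of 5.42 to 5.49 and pairwise correlations across probes of 0.964 to 0.99. The colon epithelium markers averaged 14.19 to 16.04 per array over 8 genes and the small intestine markers 5.43 to 6.11 over 9 genes, with all of the measured markers above 0. The Lao1 probe read 2.64 to 3.56 on every array and so does not check the label of the knockouts. No probe was found under the symbol Il4i1, so that deletion could not be checked by its own gene either. Marker genes set some arrays apart from the rest. The mean of 8 pancreatic acinar genes was 16.56 on DKO replicate 2 and 4.06 to 4.85 on the other 11 arrays, and the mean of 7 epithelial inflammation genes was 12.23 on DKO replicate 1 and 4.93 to 7.24 elsewhere. IL4i1 KO replicate 2 had the highest smooth muscle mean (17.11, against 15.13 to 16.51 elsewhere) and the lowest B and plasma cell mean (6.4, against 7.58 to 9.57). The lowest colon epithelium mean was that of IL4i1 KO replicate 3 (14.19, against 14.79 to 16.04 elsewhere).

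No transporter gene passed the test in any of the 6 comparisons made (limma, Benjamini-Hochberg adjustment over all 22206 probes, threshold 0.05). In the DKO against wild type, 0 of 51 transporter genes and 5 probes of the whole array passed, which is 0.0225% of all probes. At an unadjusted p under 0.05, 10 transporter genes (19.6%) stood apart there, against 7.44% of all probes. Of these, 4 were higher in the DKO (7.84%, against 3.63% of all probes) and 6 were lower (11.8%, against 3.81%). The 4 higher genes were the heavy chain Slc3a2, its light chains Slc7a5 and Slc7a11, and the dim glutamate carrier Slc1a3. The 6 lower genes were Slc6a14, Slc38a9, Slc36a4, Slc1a5, Slc43a1 and Slc7a4. All DKO arrays lay below all wild type arrays for 7 transporter genes (13.7%, against 5.95% of all probes) and above them for 3 (5.88%, against 5.68%). The median difference over the 51 genes was -0.12 on the log2 scale, against 0 over all probes, with 29 genes below 0, 21 above and Slc38a5 at 0.

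Dimness limited what could be read for part of the families. A probe was called dim when its mean over all arrays was below 4.67, the 40th percentile of all probe means, and 18 of the 51 genes were dim by that limit. The other 33 included 4 of 7 Slc1 genes, both heavy chains, 5 of 10 light chains, 3 of 5 cationic carriers, 5 of 7 Slc6 genes, 2 of 4 Slc36 genes, 8 of 11 Slc38 genes, 3 of 4 facilitators and Slc7a6os. In the map of all transporter genes by array, strong departures from the wild type mean are seen upward in Slc7a5 and Slc7a11 on DKO replicates 1 and 2 and downward in Slc3a1 on IL4i1 KO replicate 3.

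**Figure D1:**
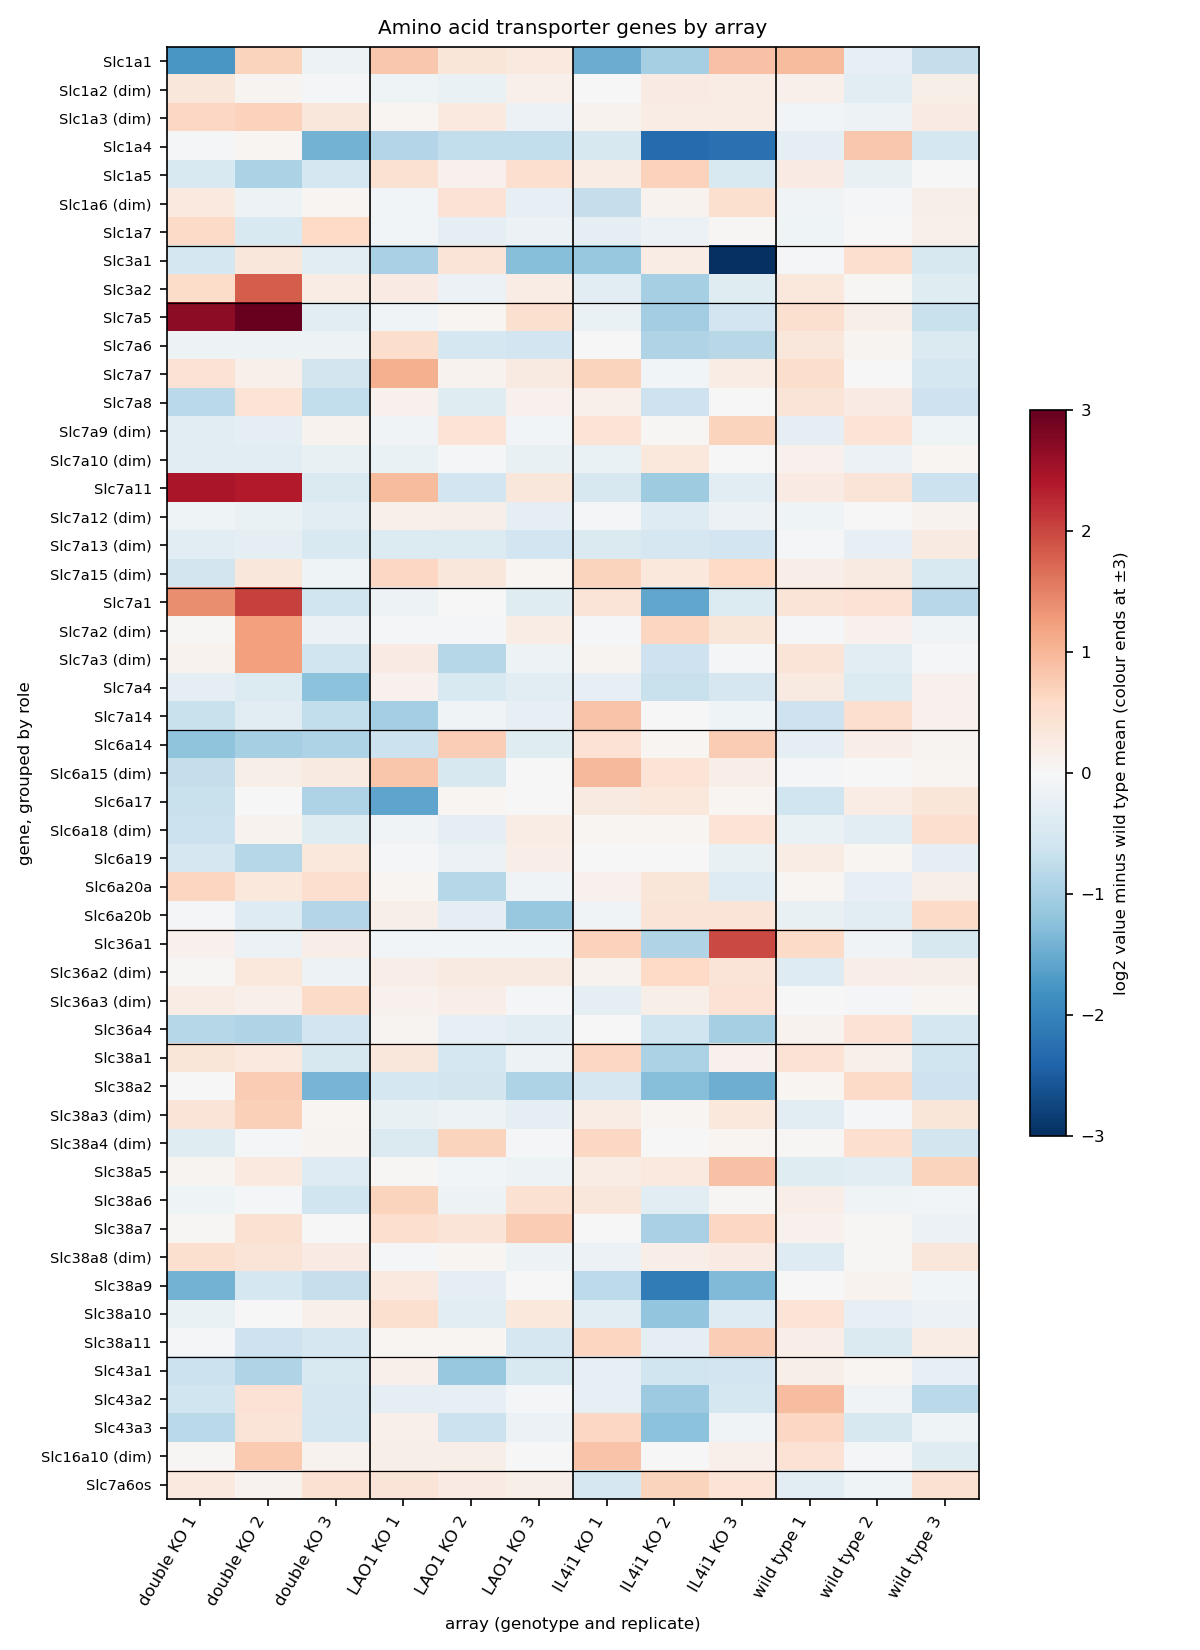
Log2 value of each of the 51 transporter genes (rows, grouped by role, dim probes marked) on each of the 12 arrays (columns), as the difference from that gene's wild type mean, with the colour scale ending at 3 in either direction. Slc7a5 reads 12.09 and 13 on DKO replicates 1 and 2 and 9.11 on replicate 3, against a wild type mean of 9.42.

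Slc7a5, the light chain of the main exchanger for large neutral and aromatic amino acids, had the largest difference of any transporter gene between the DKO and wild type. Its log2 levels were 12.09, 13 and 9.11 in the DKO, 9.3, 9.47 and 9.9 in LAO1 KO, 9.21, 8.38 and 8.85 in IL4i1 KO, and 9.9, 9.59 and 8.76 in wild type. DKO replicates 1 and 2 lay above every other array, while DKO replicate 3 lay inside the wild type range, so the groups overlapped. The DKO mean was 11.4 ± 2.03 and the wild type mean 9.42 ± 0.59 (SD, n = 3 each), a log2 difference of 1.98 (SE 0.71, 95% interval 0.45 to 3.52, 3.95-fold) with limma's adjusted p = 0.575. The difference was 1.18 without DKO replicate 2 and 3.13 without DKO replicate 3, where limma's adjusted p was 0.0198 (range over all alternatives 0.0198 to 0.965). In whole tissue, a change in the number of cells of a type and a change in RNA per cell cannot be told apart. Against LAO1 KO the DKO stood 1.84 higher (limma's adjusted p = 0.624) and against IL4i1 KO 2.59 higher (limma's adjusted p = 0.181). Without DKO replicate 2 those values were 1.04 and 1.79, and the second was 1.57 without IL4i1 KO replicate 2 as well, an alternative chosen after seeing the data. Without DKO replicate 3 they were 2.99 and 3.73, with limma's adjusted p = 0.0273 and 0.00452 (ranges over all alternatives 0.0273 to 0.996 and 0.00452 to 0.515).

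Slc3a2 encodes the heavy chain that carries Slc7a5, Slc7a6, Slc7a7, Slc7a8, Slc7a10 and Slc7a11 to the cell surface. It read 13.62, 14.89 and 13.29 in the DKO, 13.32, 12.88 and 13.3 in LAO1 KO, 12.76, 12.08 and 12.7 in IL4i1 KO, and 13.39, 13.11 and 12.7 in wild type. DKO replicate 2 was the highest of the 12 arrays, and every DKO array lay above every IL4i1 KO array. The log2 difference was 0.87 (SE 0.36, limma's adjusted p = 0.631) between the DKO and wild type, and 1.42 (SE 0.36, limma's adjusted p = 0.143) between the DKO and IL4i1 KO. Without DKO replicate 2 the difference was 0.39 from wild type and 0.94 from IL4i1 KO.

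Slc7a7, Slc7a8 and Slc7a6, further partners of Slc3a2, did not separate the DKO from wild type. Slc7a7, which exports arginine and lysine at the blood side of the epithelium in exchange for neutral amino acids, read 10.2, 9.92 and 9.23 in the DKO and 10.3, 9.78 and 9.24 in wild type, a difference of 0.01 (95% interval -0.73 to 0.75). Slc7a8, another exchanger of neutral amino acids at the same surface, read 6.35, 7.57 and 6.42 in the DKO and 7.56, 7.41 and 6.54 in wild type (difference -0.39, 95% interval -1.16 to 0.38). Slc7a6, a close relative of Slc7a7, read 6.99, 6.99 and 7.01 in the DKO and 7.49, 7.24 and 6.73 in wild type, and Slc7a6os on the opposite strand read 7.19, 7.01 and 7.36 in the DKO and 6.57, 6.77 and 7.34 in wild type. How far the probes of Slc7a6 and Slc7a6os separate the strands was not tested. The DKO and wild type ranges of these 4 genes overlapped. Among the 10 light chains 3 were higher and 7 lower in the DKO, with a median difference of -0.16.

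Slc7a11 is the light chain of the cystine and glutamate exchanger, which feeds glutathione synthesis and is a known target of ATF4 and of NRF2. Its levels were 9.42, 9.34 and 6.54 in the DKO, 7.91, 6.4 and 7.31 in LAO1 KO, 6.48, 5.91 and 6.62 in IL4i1 KO, and 7.22, 7.36 and 6.33 in wild type. DKO replicates 1 and 2 again lay above all other arrays and DKO replicate 3 within the wild type range. The DKO stood 1.46 above wild type (SE 0.63, 95% interval 0.10 to 2.83, limma's adjusted p = 0.645) and 2.1 above IL4i1 KO (SE 0.63, limma's adjusted p = 0.239). Against wild type the value was 0.97 without DKO replicate 1 and 2.41 without DKO replicate 3. Leaving out DKO replicate 3 gave 3.04 against IL4i1 KO with limma's adjusted p = 0.00899 (range over all alternatives 0.00899 to 0.622).

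Because the 2 exchanger light chains and their heavy chain stood highest on the same arrays, their promoters were searched for the core of the C/EBP-ATF response element, the site through which ATF4 binds amino acid response genes. The motif was TGATGNAA on either strand, in windows of 250 bases before and 50 after each start site as given by RefSeq for GRCm38.p6, with the first of those 50 bases counted as 0. It occurred in 1304 of 32851 windows of all genes (3.97%), and 23 windows (0.07%) held it more than once. Of the 51 transporter genes, 38 had a window, and 3 of these 38 held a match. Some genes had several windows. Counted by window, 4 of the 50 windows of the transporter genes held the motif (8%), and 2 held it more than once (4%). Slc7a11 had 2 matches, on opposite strands at -66 to -59 and -47 to -40 from the start site. Slc7a7 had 2 in one of its windows, at -141 to -134 and -1 to 6, and Slc1a4 had 1, at -4 to 3. The second of these Slc7a7 stretches also lies in an overlapping window of a further start site, at -243 to -236, and the other Slc7a7 windows had no match. No match was found in the window of Slc3a2, and Slc7a5, Slc1a5 and Slc38a1 were among the 13 genes with no window. A match says only that these letters are present. For each of the 3 matching genes and for Slc3a2, 1 window is given 5′ to 3′ on the strand of the gene, with each match in capitals. For Slc7a7 it is the window with 2 matches.
Slc7a11 promoter window, GRCm38.p6 chr3:50443564-50443863, minus strand: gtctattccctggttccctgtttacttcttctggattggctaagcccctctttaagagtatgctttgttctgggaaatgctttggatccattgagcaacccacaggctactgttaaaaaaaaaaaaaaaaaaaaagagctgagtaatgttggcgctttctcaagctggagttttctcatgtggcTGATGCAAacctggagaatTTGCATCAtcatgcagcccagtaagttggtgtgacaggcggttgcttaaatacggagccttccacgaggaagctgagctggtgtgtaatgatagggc
Slc1a4 promoter window, GRCm38.p6 chr11:20332664-20332963, minus strand: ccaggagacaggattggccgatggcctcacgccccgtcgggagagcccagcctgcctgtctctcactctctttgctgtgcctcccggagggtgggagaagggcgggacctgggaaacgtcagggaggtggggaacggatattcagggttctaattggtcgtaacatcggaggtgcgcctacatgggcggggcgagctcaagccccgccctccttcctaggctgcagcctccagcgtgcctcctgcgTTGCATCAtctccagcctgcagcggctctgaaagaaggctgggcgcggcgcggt
Slc7a7 promoter window, GRCm38.p6 chr14:54417895-54418194, minus strand: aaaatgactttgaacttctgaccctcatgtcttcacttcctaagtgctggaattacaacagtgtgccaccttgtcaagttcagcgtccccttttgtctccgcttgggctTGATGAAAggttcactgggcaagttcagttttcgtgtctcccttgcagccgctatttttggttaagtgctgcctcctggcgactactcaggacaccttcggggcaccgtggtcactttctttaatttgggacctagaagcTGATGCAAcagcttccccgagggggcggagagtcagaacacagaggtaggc
Slc3a2 promoter window, GRCm38.p6 chr19:8713848-8714147, minus strand: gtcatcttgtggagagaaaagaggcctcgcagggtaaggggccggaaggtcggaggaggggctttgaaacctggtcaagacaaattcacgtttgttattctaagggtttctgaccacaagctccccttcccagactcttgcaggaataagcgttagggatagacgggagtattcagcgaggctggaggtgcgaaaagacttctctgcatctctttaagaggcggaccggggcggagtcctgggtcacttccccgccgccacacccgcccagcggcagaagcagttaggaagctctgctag

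Slc7a1 is the widely used importer of arginine and lysine. It read 9.82, 10.48 and 7.83 in the DKO, 8.28, 8.44 and 8.06 in LAO1 KO, 8.82, 6.87 and 8.02 in IL4i1 KO, and 8.82, 8.85 and 7.6 in wild type. The highest readings were those of DKO replicates 1 and 2, with replicate 3 among the other genotypes. The DKO stood 0.95 above wild type (SE 0.61, limma's adjusted p = 0.779) and 1.47 above IL4i1 KO (SE 0.61, limma's adjusted p = 0.447). The value against IL4i1 KO was 0.92 without DKO replicate 2, 2.25 without DKO replicate 3 and 0.96 without IL4i1 KO replicate 2. Without replicate 2 of both genotypes it was 0.41. Of the other genes grouped with the cationic carriers, Slc7a2 and Slc7a3 were dim. Both read highest on DKO replicate 2, at 4.39 for Slc7a2 and 5.33 for Slc7a3, against 3 to 3.8 for Slc7a2 and 3.24 to 4.48 for Slc7a3 elsewhere. Slc7a4, a relative with no settled transport activity, read 6.65, 6.5 and 5.69 in the DKO and 7.19, 6.51 and 7.05 in wild type, 0.64 lower in the DKO (limma's adjusted p = 0.655). Slc7a14, a lysosomal relative, stood 0.81 lower in the DKO than in IL4i1 KO (limma's adjusted p = 0.458), with all DKO arrays (5.05, 5.41 and 5) below IL4i1 KO arrays (6.58, 5.73 and 5.59). Without IL4i1 KO replicate 1 that difference was -0.51.

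The arrays on which these genes read highest are also those set apart by other markers. DKO replicate 2, highest for Slc7a5, Slc3a2 and Slc7a1, had acinar genes such as Cpa1 at 18.12, against 4.21 to 5.48 on the other 11 arrays. DKO replicate 1, highest for Slc7a11, had Lcn2, a lipocalin gene of inflamed epithelium, at 9.81, against 3.17 to 3.94 elsewhere. The part of either in the transporter values was not tested.

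Slc6a14 was lower in the DKO than in every other genotype and had the smallest p of the 51 genes against wild type. It encodes the sodium- and chloride-driven importer of neutral and cationic amino acids at the luminal surface of the distal gut, with a preference for hydrophobic and aromatic substrates. Its levels were 12.61, 12.81 and 12.9 in the DKO, 13.18, 14.55 and 13.45 in LAO1 KO, 14.25, 13.88 and 14.59 in IL4i1 KO, and 13.54, 14.02 and 13.89 in wild type. Every DKO array lay below all 9 other arrays, and the 3 DKO arrays lay close together. The DKO mean was 12.77 ± 0.15 and the wild type mean 13.82 ± 0.25 (SD, n = 3 each), a difference of -1.04 (SE 0.32, 95% interval -1.72 to -0.36, 2.06-fold) with limma's adjusted p = 0.485. Against LAO1 KO the DKO stood at -0.95 (limma's adjusted p = 0.518), or -0.54 without LAO1 KO replicate 2, and against IL4i1 KO at -1.47 (SE 0.32, 95% interval -2.15 to -0.79, limma's adjusted p = 0.0689). The last of these passed after quantile normalization (-1.61, limma's adjusted p = 0.044) and without LAO1 KO replicate 2 (-1.47, limma's adjusted p = 0.0167, range over all alternatives 0.0167 to 0.276). In the single knockouts Slc6a14 differed from wild type by -0.09 (LAO1, 95% interval -0.77 to 0.59) and 0.42 (IL4i1, 95% interval -0.26 to 1.1).

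Epithelial markers were examined beside Slc6a14, since it is known from epithelial cells. The mean of the 8 colon epithelium genes was 15.18, 15.04 and 14.93 in the DKO, 14.79, 15.25 and 15.33 in LAO1 KO, 15.45, 16.04 and 14.19 in IL4i1 KO, and 15.33, 15.7 and 15.34 in wild type. The DKO arrays lay below the wild type arrays on this mean and inside the ranges of both single knockouts, and 0 of the 8 genes had an unadjusted p under 0.05 against wild type. The 6 goblet cell genes averaged 16.51, 17 and 17.24 in the DKO and 17.37, 17.55 and 17.51 in wild type. At an unadjusted p under 0.05, 1 of 6 was lower in the DKO, and the median difference was -0.72. Muc2 and Clca1 read 19.66 to 19.93 throughout, near the highest value of the data, so a change in them could be hidden. Zg16, Fcgbp, Tff3 and Spdef had lower means in the DKO than in wild type. The part of either list in the Slc6a14 values was not tested.

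Over the 7 Slc6 genes, 6 means were lower in the DKO than in wild type, with a median of -0.35, and 6 were higher in IL4i1 KO than in wild type, with a median of 0.21. Slc6a19, the main sodium-driven importer of neutral amino acids in the small intestine, read 4.84, 4.48 and 5.64 in the DKO and 5.56, 5.39 and 5.05 in wild type. Slc6a15 and Slc6a18 were dim. Slc6a17, a neutral amino acid carrier of neuronal vesicles, read 7.39, 8.07 and 7.13 in the DKO and 7.46, 8.28 and 8.4 in wild type. The mean above wild type was that of Slc6a20a, one of a pair of near-identical mouse genes for proline carriage, at 6.6, 6.26 and 6.46 in the DKO, 6.02, 5.1 and 5.85 in LAO1 KO, and 6.02, 5.71 and 6.12 in wild type. All DKO arrays of Slc6a20a lay above both of those groups, by 0.78 over LAO1 KO (limma's adjusted p = 0.532, 0.51 without LAO1 KO replicate 2) and 0.49 over wild type (limma's adjusted p = 0.738). Its copy Slc6a20b stood at -0.44 against wild type (95% interval -1.19 to 0.31), and how far the probes of the pair separate their transcripts was not tested.

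**Figure D2:**
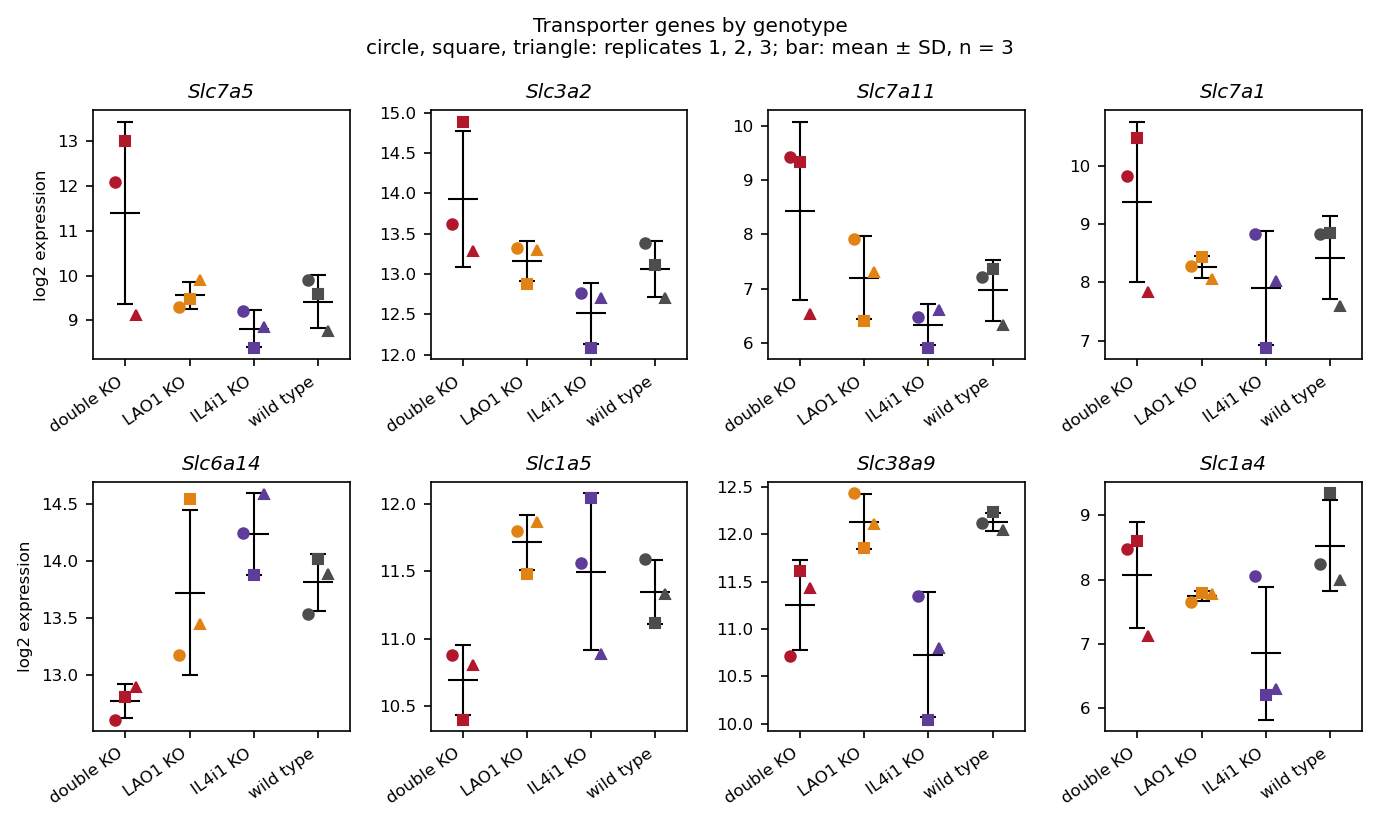
Log2 expression (vertical axes) of 8 transporter genes by genotype, with circle, square and triangle for replicates 1, 2 and 3 and a bar for the mean ± SD of 3 arrays. DKO replicates 1 and 2 of Slc7a5 (12.09 and 13) and Slc7a11 (9.42 and 9.34) lie above all other arrays, whereas the 3 DKO arrays of Slc6a14 (12.61 to 12.9) lie below all others.

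In the Slc1 family all DKO arrays lay below the other 9 for the glutamine carrier Slc1a5, and above them for the dim Slc1a3. Slc1a5 exchanges glutamine and other small neutral amino acids with sodium and supplies substrate to the Slc7a5 exchanger. It read 10.88, 10.4 and 10.81 in the DKO, 11.8, 11.48 and 11.86 in LAO1 KO, 11.56, 12.04 and 10.89 in IL4i1 KO, and 11.59, 11.12 and 11.33 in wild type. The margin to IL4i1 KO replicate 3 was narrow. The difference was -0.65 against wild type (SE 0.27, limma's adjusted p = 0.632), -1.02 against LAO1 KO (SE 0.27, 95% interval -1.61 to -0.42, limma's adjusted p = 0.333) and -0.8 against IL4i1 KO (limma's adjusted p = 0.314), the last -0.53 without IL4i1 KO replicate 2.

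Slc1a4, a sodium-dependent carrier of alanine, serine and cysteine, was lowest in IL4i1 KO. Its levels were 8.48, 8.6 and 7.12 in the DKO, 7.65, 7.79 and 7.78 in LAO1 KO, 8.05, 6.21 and 6.3 in IL4i1 KO, and 8.25, 9.34 and 8 in wild type. IL4i1 KO replicates 2 and 3 lay below every other array, and replicate 1 lay just inside the wild type range. IL4i1 KO stood at -1.68 against wild type (SE 0.5, 95% interval -2.76 to -0.59, 3.2-fold, limma's adjusted p = 0.52) and LAO1 KO at -0.79 with all of its arrays below wild type (limma's adjusted p = 1). The DKO stood at -0.46 against wild type (95% interval -1.55 to 0.62). The epithelial glutamate carrier Slc1a1 varied within genotypes, at 6.58, 8.99 and 8.18 in the DKO and 9.27, 8.09 and 7.62 in wild type. Slc1a3, a glial glutamate carrier that was dim here, read 3.94, 4.02 and 3.66 in the DKO, 3.38, 3.62 and 3.14 in LAO1 KO, 3.42, 3.55 and 3.54 in IL4i1 KO, and 3.25, 3.16 and 3.56 in wild type. The DKO was 0.49 above LAO1 KO, 0.37 above IL4i1 KO and 0.55 above wild type (limma's adjusted p = 0.654, 0.586 and 0.577). Slc1a7 read 5.12 to 6.17 over the 12 arrays, and Slc1a2 and Slc1a6 were dim.

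Slc38a9 gave the lowest values in both genotypes that lacked Il4i1. It is the lysosomal arginine carrier that reports lysosomal amino acids to the growth kinase complex mTORC1. Its levels were 10.71, 11.61 and 11.43 in the DKO, 12.43, 11.85 and 12.11 in LAO1 KO, 11.35, 10.04 and 10.8 in IL4i1 KO, and 12.12, 12.23 and 12.04 in wild type. All 6 arrays without Il4i1 lay below all 6 arrays with it. This grouping was not one of the 6 comparisons, and the share of all probes that split this way was not counted. IL4i1 KO stood at -1.4 against wild type (SE 0.32, 95% interval -2.09 to -0.71, 2.64-fold, limma's adjusted p = 0.406), and the value was -1.71 without its replicate 1 and -1.05 without its replicate 2. The DKO stood at -0.88 against wild type (95% interval -1.57 to -0.19, limma's adjusted p = 0.577) and at -0.88 against LAO1 KO (limma's adjusted p = 0.58), while LAO1 KO differed from wild type by 0 (95% interval -0.69 to 0.69). The comparisons with wild type share its 3 arrays.

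Slc38a2 and Slc38a1 are the sodium-coupled importers of glutamine and other small neutral amino acids, and Slc38a2 is itself raised by amino acid shortage in cultured cells. Slc38a2 read 14.49, 15.25 and 13.08 in the DKO, 13.96, 13.92 and 13.55 in LAO1 KO, 13.97, 13.19 and 13.02 in IL4i1 KO, and 14.53, 15.04 and 13.86 in wild type. The DKO arrays spanned nearly the whole range of the gene, and IL4i1 KO stood at -1.08 against wild type (SE 0.46, limma's adjusted p = 0.634). Slc38a1 read 12.45, 12.36 and 11.6 in the DKO and 12.51, 12.23 and 11.49 in wild type, a difference of 0.06 (95% interval -0.8 to 0.92).

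Slc38a10, a carrier of glutamine and glutamate, read 13.9, 14.08 and 14.26 in the DKO, 14.58, 13.77 and 14.42 in LAO1 KO, 13.75, 12.91 and 13.7 in IL4i1 KO, and 14.5, 13.86 and 13.93 in wild type. All IL4i1 KO arrays lay below all others, at -0.64 against wild type (SE 0.29, limma's adjusted p = 0.644, -0.37 without IL4i1 KO replicate 2) and with the DKO 0.63 above them (limma's adjusted p = 0.5). Slc38a6 read 9.62, 9.7 and 9.15 in the DKO and 10.4, 9.58 and 10.2 in LAO1 KO, 0.57 lower in the DKO (limma's adjusted p = 0.691). Slc38a7, a lysosomal glutamine exporter, had all LAO1 KO arrays (7.37, 7.26 and 7.64) above wild type (7, 6.91 and 6.7), at 0.55 (95% interval -0.14 to 1.24). Slc38a11 stood 0.75 lower in the DKO than in IL4i1 KO (limma's adjusted p = 0.433). Slc38a5, a glutamine carrier known from intestinal crypts, had DKO and wild type means of 4.89 each. Slc38a3, Slc38a4 and Slc38a8 were dim, and Slc38a3 had its DKO arrays (3.65, 3.97 and 3.32) above LAO1 KO arrays (3.05, 3.11 and 2.97).

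Of the proton-coupled Slc36 carriers, Slc36a4 was lower in the DKO. Slc36a4 is a high-affinity carrier of proline and tryptophan, and it read 5.98, 5.94 and 6.27 in the DKO, 6.93, 6.59 and 6.53 in LAO1 KO, 6.82, 6.23 and 5.83 in IL4i1 KO, and 6.94, 7.27 and 6.3 in wild type. All DKO arrays lay below wild type and below LAO1 KO, with DKO replicate 3 only just below wild type replicate 3. The difference from wild type was -0.77 (SE 0.29, 95% interval -1.39 to -0.15, limma's adjusted p = 0.58). Slc36a1, a lysosomal and luminal carrier of small neutral amino acids, read 8.53, 8.23 and 8.6 in the DKO, 9.08, 7.5 and 10.38 in IL4i1 KO, and 8.98, 8.3 and 7.92 in wild type. Slc36a2 and Slc36a3 were dim.

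The facilitators let large neutral and aromatic amino acids flow down their gradient. Slc43a1 read 6.15, 5.89 and 6.34 in the DKO, 6.96, 5.67 and 6.35 in LAO1 KO, 6.54, 6.19 and 6.22 in IL4i1 KO, and 6.97, 6.86 and 6.56 in wild type. All DKO and all IL4i1 KO arrays lay below wild type, at -0.67 in the DKO (SE 0.28, limma's adjusted p = 0.632) and -0.48 in IL4i1 KO (limma's adjusted p = 0.698). The highest IL4i1 KO array (6.54) lay only just below the lowest wild type array (6.56). The LAO1 KO mean was lower by nearly the same amount as that of IL4i1 KO, at -0.47. The highest LAO1 KO array (6.96) lay inside the wild type range and the lowest (5.67) below every other array. Slc43a2, a relative of Slc43a1, read 5.92, 6.97 and 6.02 in the DKO and 7.46, 6.41 and 5.71 in wild type. Slc16a10, the carrier that moves aromatic amino acids out of intestinal cells, was dim by its mean, at 4.41, 5.15 and 4.48 in the DKO and 4.79, 4.3 and 4 in wild type. Slc43a3, a relative that carries purine bases instead, read 7.58 to 9.44 with no separation between the DKO and wild type.

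Aromatic amino acids are the preferred substrates of IL4i1, and 9 of the genes above form the list of aromatic amino acid carriers, comprising Slc3a2, Slc7a5, Slc7a8, Slc43a1, Slc43a2, Slc16a10, Slc6a14, Slc6a19 and Slc36a4. None of the 9 passed the test in any comparison. In the DKO against wild type, 2 were higher (Slc7a5 and Slc3a2) and 3 lower (Slc6a14, Slc36a4 and Slc43a1) at an unadjusted p under 0.05, against 3.63% of all probes higher and 3.81% lower, with a median of -0.35 over the list and 0 over all probes. The list held differences of both signs, from 1.98 for Slc7a5, where DKO replicate 3 lay inside the wild type range, to -1.04 for Slc6a14. Averaged over the 9 genes, the level was 8, 8.52 and 7.83 in the DKO and 8.46, 8.26 and 7.72 in wild type, and the groups overlapped.

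Slc3a1, the heavy chain of the luminal carrier for cystine and basic amino acids, was above the dim limit, and its usual light chain Slc7a9 was below it (2.98 to 3.96 over all arrays). Slc3a1 read 9.62, 10.5 and 9.81 in the DKO, 9.19, 10.55 and 8.89 in LAO1 KO, 9.01, 10.38 and 6.88 in IL4i1 KO, and 10.13, 10.66 and 9.68 in wild type. Replicate 2 was the highest array of every genotype, and IL4i1 KO replicate 3 was the lowest of all. That array also had the lowest mean of the colon epithelium genes (14.19), whose part in the Slc3a1 values was not tested. IL4i1 KO stood at -1.4 against wild type (SE 0.68, 95% interval -2.87 to 0.07, limma's adjusted p = 0.658). Slc7a13, a light chain that pairs with Slc3a1 in the kidney, was dim on every array and read lower in all knockouts, at 3.28, 3.29 and 3.13 in the DKO, 3.18, 3.18 and 3.01 in LAO1 KO, 3.15, 3.1 and 3.02 in IL4i1 KO, and 3.56, 3.35 and 3.87 in wild type. Slc7a10, Slc7a12 and Slc7a15 were also dim.

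Few of these genes stood apart between LAO1 KO and wild type, which does not show that their differences were small. The unadjusted interval of the log2 difference was wide for some genes, at -1.39 to 1.67 for Slc7a5 and -1.88 to 0.3 for Slc1a4. None of the 51 passed, against 0.0045% of all probes, and 1 gene (Slc7a13, -0.47, limma's adjusted p = 1) had an unadjusted p under 0.05, against 3.02% of all probes (1.45% higher and 1.57% lower). All LAO1 KO arrays lay above wild type for 1 gene and below it for 2, which is 1.96% and 3.92% of the members, against 4.67% and 3.86% of all probes. The median difference was -0.06. The mean of 5 mast cell genes was 6.26, 6.41 and 6.55 in LAO1 KO and 8.75, 7.33 and 8.11 in wild type, and 3 of the 5 were lower at an unadjusted p under 0.05 while 0 passed. The part of these cells in the transporter values was not tested.

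For IL4i1 KO against wild type, again none of the 51 passed, against 0.0135% of all probes. An unadjusted p under 0.05 was found for 5 genes (9.8%), against 7.58% of all probes, and all of these were lower in the knockout, against 4.34% of all probes lower. They were Slc38a9 (-1.4), Slc1a4 (-1.68), Slc7a13 (-0.5), Slc38a2 (-1.08) and Slc38a10 (-0.64). The groups did not overlap for 2 genes higher (3.92%, against 5.97% of all probes) and 4 lower (7.84%, against 5.16%). IL4i1 KO replicate 2 was the lowest of the 3 for Slc38a9, Slc1a4 and Slc38a10, and the 6 smooth muscle genes averaged 17.11 on that array, against 15.66 and 16.51 on the other IL4i1 KO arrays. The mean of the mast cell genes was also low in this genotype, with 2 of the 5 past the threshold, at 4.99, 4.91 and 5.19 in IL4i1 KO and 8.75, 7.33 and 8.11 in wild type. The part of either in the transporter values was not tested.

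**Figure D3:**
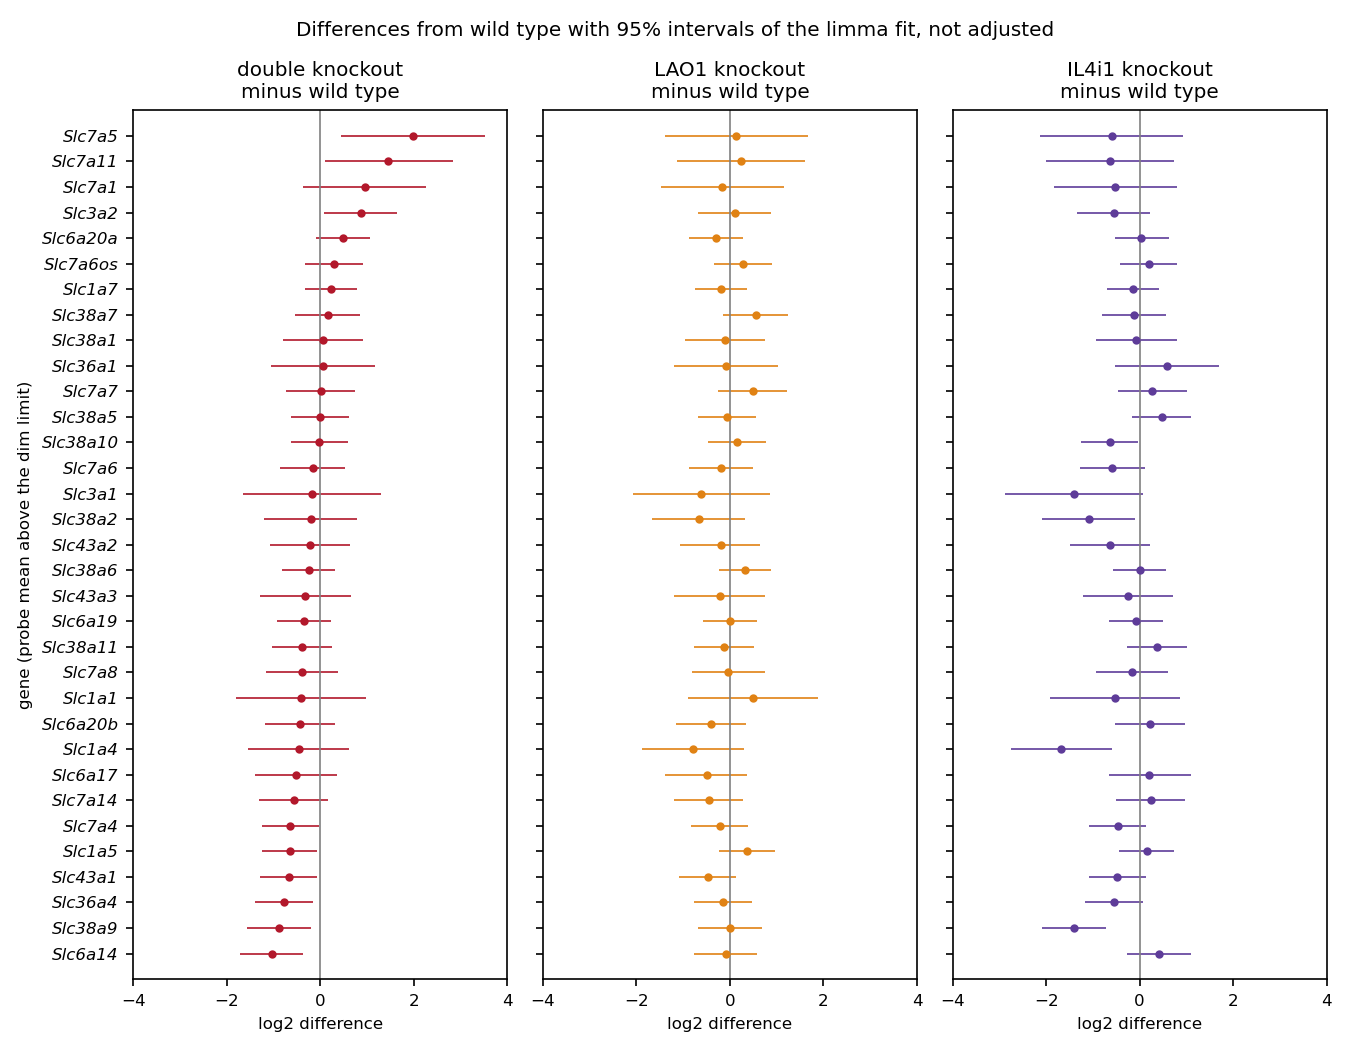
Log2 difference of each knockout from wild type (horizontal axes) with its 95% interval, not adjusted, for the 33 transporter genes above the dim limit, ordered by the DKO value. Slc7a5 lies at the top of the DKO panel at 1.98 and Slc6a14 at the bottom at -1.04, while the LAO1 panel shows Slc7a5 at 0.14 and Slc6a14 at -0.09.

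Set directly against the single knockouts, the DKO again had no transporter gene past the threshold. Against LAO1 KO 0.14% of all probes passed, and 9 of the 51 genes (17.6%) had an unadjusted p under 0.05, against 7.15% of all probes, with 4 higher (3.51% of all probes) and 5 lower (3.64%). Against IL4i1 KO 0.477% of all probes passed, and 11 genes (21.6%) had an unadjusted p under 0.05, against 9.83% of all probes, with 6 higher (5.17% of all probes) and 5 lower (4.66%). The groups did not overlap for 4 genes higher and 4 lower against LAO1 KO (7.84% each, against 6.25% and 6.46% of all probes), and for 3 higher and 5 lower against IL4i1 KO (5.88% and 9.8%, against 6.05% and 6.62%). The mean of the 5 mast cell genes was 7.63, 8.85 and 8.57 in the DKO, above all arrays of both single knockouts. Past the threshold were 2 of the 5 against LAO1 KO and 3 against IL4i1 KO, and their part in the transporter values was not tested.

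The interaction is the log2 difference of the DKO from wild type minus the sum of the differences of LAO1 KO and IL4i1 KO from wild type. No transporter gene passed it, against 0.23% of all probes, and 8 genes (15.7%) had an unadjusted p under 0.05, against 7.12% of all probes, with 5 positive (3.87% of all probes) and 3 negative (3.26%). Positive values were found for Slc7a5 (2.45, SE 1, limma's adjusted p = 0.633), Slc3a2 (1.32, limma's adjusted p = 0.592), Slc1a4 (2, SE 0.71, limma's adjusted p = 0.54) and Slc38a2 (1.55, limma's adjusted p = 0.654), and for the dim Slc7a13 (0.61). Negative values were found for Slc6a14 (-1.38, SE 0.45, limma's adjusted p = 0.457), Slc1a5 (-1.17, limma's adjusted p = 0.483) and the dim Slc7a15 (-0.98). The value of Slc7a5 was 3.59 without DKO replicate 3, with limma's adjusted p = 0.014 (range over all alternatives 0.014 to 0.94). Without DKO replicate 2 it was 1.65, and that of Slc3a2 0.84. Of the mast cell genes, 3 of 5 passed the interaction test, with a median of 4.57, and their part in these values was not tested. For Slc1a4 and Slc38a2 the single knockouts stood below wild type while the DKO mean lay between, whereas for Slc7a5, Slc6a14 and Slc1a5 the DKO mean lay outside the means of the other 3 genotypes.

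Genes of the wider amino acid response were read beside the carriers. The list of amino acid response genes outside the transporter families held targets of ATF4, and also Atf4 itself and Eif2ak4. Of its 20 genes, 19 were measured. In the DKO against wild type, 7 were higher and 1 lower at an unadjusted p under 0.05, against 3.63% of all probes higher and 3.81% lower. The median was 0.64, and 1 passed the adjusted threshold, against 0.0225% of all probes. That gene was the stress protein Nupr1, which fell by 3.61 on the log2 scale (limma's adjusted p = 0.0352), opposite in sign to the list's median, at 9.67, 9.91 and 9.87 in the DKO and 12.72, 14.1 and 13.45 in wild type. Against IL4i1 KO 4 passed, against 0.477% of all probes. These were the tryptophanyl-tRNA synthetase gene Wars (2.7, limma's adjusted p = 0.0178), which interferon also induces, the asparagine synthetase gene Asns (1.87, limma's adjusted p = 0.0348) and the mitochondrial folate enzyme gene Mthfd2 (1.75, limma's adjusted p = 0.0425), all of which rose, and Nupr1, which fell by 2.64 (limma's adjusted p = 0.0348).

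Asns read 12.94, 13.16 and 11.7 in the DKO, 12.06, 11.57 and 11.97 in LAO1 KO, 10.55, 10.54 and 11.1 in IL4i1 KO, and 12.14, 12.16 and 11.44 in wild type. The serine synthesis gene Psat1 read 10.33, 8.99 and 7.15 in the DKO and 7.81, 8.01 and 7.71 in wild type, and the glutathione-degrading enzyme gene Chac1 read 7.03, 9.13 and 4.65 in the DKO and 5.04, 6.71 and 5.42 in wild type. In each of these 3 genes DKO replicates 1 and 2 lay above every wild type array and DKO replicate 3 did not, the same arrays as for Slc7a5, Slc7a11 and Slc7a1. Phgdh, Shmt2 and Mthfd2 were among the other listed genes with this pattern, but not all genes of the list had it. Wars lay above wild type (13.15, 13.25 and 13.08) on every DKO array (15.7, 14.3 and 14.8). Psph was highest on DKO replicate 3 (11.12), and Atf4 had means of 12.93 in the DKO and 12.88 in wild type. The list mean was 9.61, 9.75 and 8.77 in the DKO and 9, 9.29 and 8.78 in wild type.

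**Figure D4:**
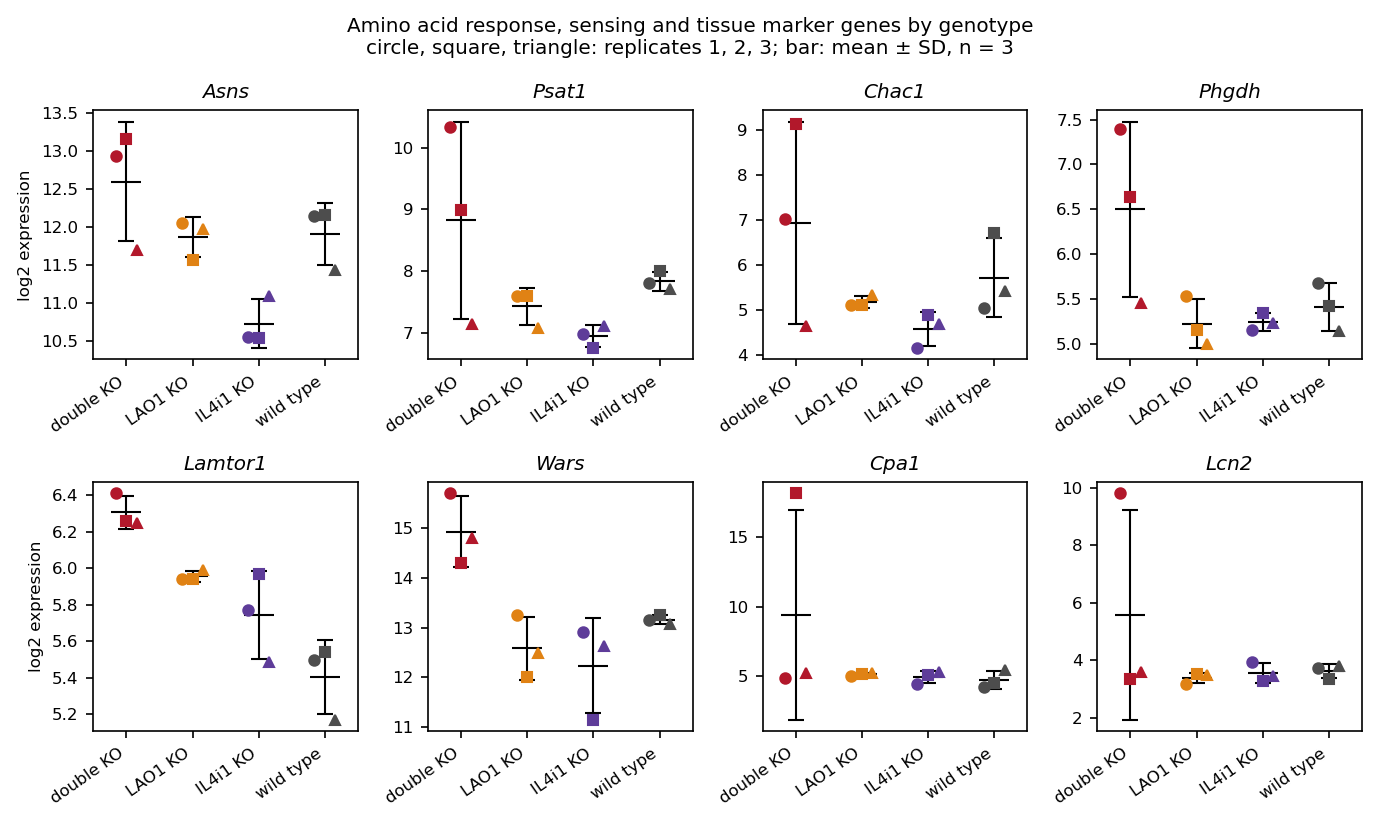
Log2 expression (vertical axes) by genotype of 4 amino acid response genes, the mTORC1 anchor gene Lamtor1, Wars, the acinar gene Cpa1 and the inflammation gene Lcn2, with circle, square and triangle for replicates 1, 2 and 3 and a bar for the mean ± SD of 3 arrays. Cpa1 is high only on DKO replicate 2 (18.12) and Lcn2 only on DKO replicate 1 (9.81), while Psat1 is above all wild type arrays on both (10.33 and 8.99).

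Amino acid sensing by mTORC1, to which Slc38a9 reports, was read over 21 genes. None passed, and in the DKO against wild type the median over the list was -0.09. At an unadjusted p under 0.05, 0 of the 21 were lower there, against 3.81% of all probes, and 1 was higher, against 3.63%. That gene was Lamtor1, which anchors the sensing complex to the lysosome, at 6.41, 6.26 and 6.25 in the DKO, 5.94, 5.94 and 5.99 in LAO1 KO, 5.77, 5.97 and 5.49 in IL4i1 KO, and 5.5, 5.54 and 5.17 in wild type. All DKO arrays lay above all others, and the DKO mean stood 0.9 above wild type (SE 0.19, 95% interval 0.49 to 1.31, limma's adjusted p = 0.247). The leucine sensor gene Sesn2, which was dim by its mean (4.31), and its relative Sesn3 had all IL4i1 KO arrays below wild type, at -0.65 for Sesn2 (limma's adjusted p = 0.636) and -0.81 for Sesn3 (limma's adjusted p = 0.568). The LAO1 KO arrays of Sesn2 (4.27, 4.31 and 4.05) also all lay below wild type (4.93, 4.58 and 4.63), whereas those of Sesn3 overlapped it.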

How the data were processed

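Per the labels' protocols, total RNA from colon was extracted with ISOGEN II, and 6 µg was made into biotin-labelled cRNA. The authors deposited log2 expression values of 22206 probes on 12 arrays, which were used without further normalization. Transcriptome Analysis Console was used, per the submitters' processing notes. Its version, the summarisation and the genome build are not given in the sources used here. Probe names came from the platform annotation, in which 19572 probes had 1 gene symbol, 0 several and 2634 none. All 51 genes matched the RefSeq table (GRCm38.p6) by Entrez number.

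Genotypes were compared by lmFit and eBayes of limma 3.58.1 (R 4.3.3), in a single model of the 12 arrays that left 8 residual degrees of freedom, two-sided, with Benjamini-Hochberg adjustment over all probes and a threshold of 0.05. The comparisons numbered 6. Intervals are 95% intervals of that fit and are not adjusted. The fit was tested on simulated data with 200 changed probes. Arrays have no read depth, and their number limits the precision. Plots used Python 3.11.15 and matplotlib 3.10.9.

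The genes named are the 10 with the highest mean, those with the 5 smallest p in each direction of a comparison at an unadjusted p under 0.05, the aromatic carriers and both heavy chains. Others are named for their level or role. The genes, lists, tests and naming rule were chosen with earlier results of these data known. The labels do not say whether replicate numbers shared between genotypes mark paired samples, and the number as a block was an alternative. Other alternatives changed the model options, the normalization, the filter on dim probes and the arrays included.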

Additional observations from a re-analysis of the deposited data

How the results depend on the processing

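Over all alternatives, 0 results with a call reversed. Of 824 values of the named transporter genes, 817 kept their direction and their side of the threshold and 7 newly passed it, which are the values of Slc7a5, Slc7a11 and Slc6a14 given with those genes. All 119 medians over the transporter genes moved by less than 0.23, the spread of that median between arrays of a genotype. This limit was wide, since the main medians were only -0.12 to 0. For the DKO against wild type the median ranged over -0.22 to -0.02 when an array was left out. Under the filter on dim probes the median covered 33 genes. The number of transporter genes past the threshold stayed at 0, except for 1 (Slc6a14) between the DKO and IL4i1 KO after quantile normalization and except where an array was left out. Leaving out 1 array gave 0 to 1 genes for the DKO against wild type, 0 to 1 against LAO1 KO, 0 to 2 against IL4i1 KO and 0 to 1 for the interaction, with the highest counts without DKO replicate 3, and 0 to 0 for each single knockout against wild type.

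Counts of probes past the threshold over the whole array moved more. For the DKO against wild type the 5 probes became 11 with limma's trend and robust options, 18 with array weights and 2 with the compared arrays alone, and ranged over 1 to 38 when an array was left out. For IL4i1 KO against wild type 3 became 8 and 11 with the first and second of these, with a range of 2 to 6. LAO1 KO against wild type ranged over 1 to 4. For the DKO against LAO1 KO 31 became 60 with array weights, with a range of 11 to 68. For the DKO against IL4i1 KO 106 became 33 with the compared arrays alone, with a range of 46 to 174. The interaction ranged over 37 to 74. Without DKO replicate 2 and IL4i1 KO replicate 2 together, an alternative chosen after seeing the data, 50 probes passed against wild type and 93 against LAO1 KO. The cause was not tested.

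With the replicate number as a block, 166 probes in place of 106 passed between the DKO and IL4i1 KO, and 0 transporter genes passed in any comparison. The labels do not say whether a replicate number marks a shared litter, day or batch. Deviations from the genotype means correlated at -0.14 to 0.22 over 15 same-numbered pairs of arrays, 6 of them over 0.1, so the block was kept as an alternative only. Each gene had 1 probe, so the alternative of another probe could not be run.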

Other observations

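Peptide transport was read as the other route of amino acid uptake, over 10 measured genes of 13 listed peptide transporters, brush border peptidases and carrier partners. None passed in any comparison, and 0 had an unadjusted p under 0.05 between the DKO and wild type (median -0.17). The luminal peptide transporter gene Slc15a1 read 10.33, 12.36 and 12.45 in the DKO, 12.67, 13.08 and 13.06 in LAO1 KO, 12.15, 12.2 and 13.16 in IL4i1 KO, and 13.11, 13.21 and 11.58 in wild type. All DKO arrays lay below LAO1 KO, at -1.22 (limma's adjusted p = 0.686), with DKO replicate 1 lowest. The aminopeptidase gene Anpep stood at -1.78 in IL4i1 KO against wild type (limma's adjusted p = 0.587), with 6.74, 4.21 and 6.74 in IL4i1 KO and 8.27, 7.84 and 6.93 in wild type.

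Glutathione synthesis uses the cystine that Slc7a11 imports, and 10 of 11 listed glutathione and NRF2 target genes were measured. None passed, and 0 had an unadjusted p under 0.05 between the DKO and wild type (median 0.16). Against IL4i1 KO 3 were higher in the DKO at an unadjusted p under 0.05, against 5.17% of all probes, which were the glutathione reductase gene Gsr (0.95), the haem oxygenase gene Hmox1 (1.21) and the glutamate-cysteine ligase gene Gclm (0.46). Gclm read 11.19, 11.01 and 10.92 in the DKO and 10.61, 10.45 and 10.67 in IL4i1 KO, so the groups did not overlap, with limma's adjusted p = 0.427. Gsr was highest on DKO replicate 1 (13.51), the array with high inflammation markers, and its part in the value was not tested.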
